A study of Mus musculus with 6 samples.

Results

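The 39 Hox genes of the mouse, the transcription factor genes of the HoxA, HoxB, HoxC and HoxD clusters, were followed in the MC3T3-E1 pre-osteoblast line with and without knockdown of the histone deacetylase gene Hdac4. They were taken from the 53801 Ensembl genes of the count tables as every gene whose symbol is Hox, a cluster letter and a paralog number, and antisense and pseudogene symbols were left out. MC3T3-E1 cells, a clonal line from newborn mouse calvaria, had been infected for 12 h with a lentivirus carrying either a scramble hairpin or a hairpin against Hdac4, and selected with 5 μg/mL puromycin for 7 days. Both groups therefore shared the vector backbone, the infection and the drug. RNA was sequenced from 3 scramble and 3 Hdac4-shRNA samples, described as independent RNA samples, which yielded 29096544 to 31651826 reads counted on genes per library. The study calls them biological replicates. No source gives the number of separate infections, so the p-values measure the spread between these samples, which may be in part technical. The labelled identity was met only in part by marker genes (values at the end). Scramble libraries held skeletal muscle transcripts such as Myod1, and the osteoblast genes Alpl, Ibsp and Bglap were near 0 in both groups. The osteoblast gene Sp7 was near 0 in scramble libraries. Other osteoblast genes, such as Runx2, Spp1 and Col1a2, were present. The identity of the cells in either group was not tested, and every comparison is between libraries labelled MC3T3-E1. Levels are given as CPM, the count of a gene per 1000000 counts of the library after TMM scaling, as mean ± SD of 3 libraries. Comparisons used the quasi-likelihood test of edgeR over the 14531 genes with enough counts, with Benjamini-Hochberg adjustment, and a gene was called at an adjusted p below 0.05 and a log2 fold change beyond 0.05.

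Hox genes encode homeodomain proteins that give cells their place along the head-to-tail axis. Within a cluster the genes lie in the order of their paralog numbers, and low numbers are used anteriorly and early while high numbers are used posteriorly and late. The mesenchyme that forms the front of the face and skull lies ahead of the Hox domains, and Hox genes of the trunk and limbs are held silent there by Polycomb complexes. Hox proteins bind DNA together with cofactors of the TALE class, the Pbx, Meis and Pknox proteins. Cultured mesenchymal cells often keep the Hox pattern of the body site they came from.

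In GRCm38, the HoxA genes lie on the minus strand of chromosome 6, and the other clusters on plus strands. HoxB spans 96194316 to 96368256 on chromosome 11 with 10 genes, HoxC 102921103 to 103036852 on chromosome 15 with 9 genes, and HoxD 74668310 to 74765142 on chromosome 2 with 9 genes. RefSeq promoter windows, which run from 250 bases before to 50 after a gene's annotated start, were matched to 22 of the 39 genes in 24 windows. The windows of 5 HoxA genes are printed here because the direction of change turned between Hoxa6 and Hoxa7. Letters are 5′ to 3′ on the minus strand of GRCm38.p6, and capitals mark a CCAAT box on either strand.
Hoxa5, chr6:52204538-52204837: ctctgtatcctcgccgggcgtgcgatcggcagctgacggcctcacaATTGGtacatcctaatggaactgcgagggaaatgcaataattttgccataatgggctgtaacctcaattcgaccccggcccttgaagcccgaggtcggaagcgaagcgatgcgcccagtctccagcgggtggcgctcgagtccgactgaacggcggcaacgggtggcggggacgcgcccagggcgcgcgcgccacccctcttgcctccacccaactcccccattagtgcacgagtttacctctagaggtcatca
Hoxa6, chr6:52208623-52208922: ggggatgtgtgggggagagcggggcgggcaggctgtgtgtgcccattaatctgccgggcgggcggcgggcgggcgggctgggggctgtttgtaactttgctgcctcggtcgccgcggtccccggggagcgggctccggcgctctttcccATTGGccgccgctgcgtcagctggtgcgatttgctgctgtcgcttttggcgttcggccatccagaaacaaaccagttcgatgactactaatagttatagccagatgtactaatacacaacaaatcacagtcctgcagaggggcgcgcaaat
Hoxa7, chr6:52218524-52218823: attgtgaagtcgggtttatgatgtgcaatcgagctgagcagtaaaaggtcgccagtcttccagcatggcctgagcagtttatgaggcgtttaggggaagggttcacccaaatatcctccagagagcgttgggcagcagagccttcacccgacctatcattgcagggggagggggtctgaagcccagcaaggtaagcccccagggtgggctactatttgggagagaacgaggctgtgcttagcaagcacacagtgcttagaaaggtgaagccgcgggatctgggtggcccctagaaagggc
Hoxa9, chr6:52227321-52227620: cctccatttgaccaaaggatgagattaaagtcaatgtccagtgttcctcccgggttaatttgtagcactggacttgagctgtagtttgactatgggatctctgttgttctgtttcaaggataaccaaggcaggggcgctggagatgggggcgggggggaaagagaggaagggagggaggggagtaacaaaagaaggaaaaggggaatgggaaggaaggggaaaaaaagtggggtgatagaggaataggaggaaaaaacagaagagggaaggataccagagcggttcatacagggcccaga
Hoxa11, chr6:52245761-52246060: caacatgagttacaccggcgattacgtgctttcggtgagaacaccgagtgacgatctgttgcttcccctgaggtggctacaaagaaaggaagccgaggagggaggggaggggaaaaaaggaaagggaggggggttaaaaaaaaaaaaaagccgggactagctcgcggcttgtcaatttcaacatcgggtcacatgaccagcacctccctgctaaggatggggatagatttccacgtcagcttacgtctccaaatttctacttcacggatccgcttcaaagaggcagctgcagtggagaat

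The windows of Hoxa5 and Hoxa6 hold 29 and 26 CpG dinucleotides, and those of Hoxa7, Hoxa9 and Hoxa11 hold 9, 4 and 15. The windows of Hoxa10 and Hoxa13, which also fell and are not printed, hold 21 and 12 (a window for each of 2 Hoxa10 starts) and 45, so the CpG number did not separate rising from falling genes. The median was 14.5 over the 24 Hox windows and 7 over all 32851 windows of this length. A CCAAT box (CCAAT, both strands) stands in the Hoxa5 and Hoxa6 windows and in none of the other 3 printed, but also in a Hoxa10 window and in the Hoxa13 window, so it did not separate them either. It was found in 15 of the 24 Hox windows and in 37.4% of all windows. The TATA box (TATAAA) was found in 4 Hox windows against 13.6% of all, the Meis letters TGACAG in 2 against 19.2%, the Pbx-Hox letters TGATTNAT in 2 against 3.22%, and the MEF2 motif in 1, that of Hoxd4, against 3.19%, where it overlaps a TATA box match. None of these last 4 motifs is in the 5 printed windows. Hoxa7 and Hoxa9 each have 5 annotated starts in GENCODE, and the Hoxa7 window is built on a RefSeq start 138 bases from the nearest of them, so each window stands for 1 start only.

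Reads on the target of the hairpin, Hdac4, numbered 1243, 1204 and 1136 in scramble and 950, 927 and 887 in Hdac4-shRNA libraries. The level of Hdac4 fell from 40.3 ± 0.412 to 29.6 ± 0.981 CPM (SD, n = 3; edgeR log2 fold change -0.44, SE 0.0579, adjusted p = 3.05e-07). The labels name the hairpin only Hdac4-shRNA, and the study's account of the sequencing gives it as Hdac4-shRNA3. That hairpin's target, shown here to be set against the Hox transcripts, is 21 bases long.
Hdac4-shRNA3 target: GCATGAGGCACAGTTGCATGA

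Its complete sequence is in 3 Hdac4 transcripts of GENCODE M21. The longest exact stretch it shares with a transcript of any of the 39 Hox genes is 9 bases. The search gives the length of the stretch only, and whether the hairpin acts on a Hox transcript through a short match was not tested.

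The summed level of the Hox genes in Hdac4-shRNA libraries was 29.5% of the scramble value, with no overlap of the groups. It was 245, 243 and 241 CPM in the scramble libraries and 71.7, 72.6 and 70.8 CPM in the Hdac4-shRNA libraries, which is 3.39-fold lower. The HoxC sum differed most, at 138 ± 1.22 and 29.9 ± 1.11 CPM (4.61-fold lower), and the HoxA sum went from 95.6 ± 2.42 to 33.0 ± 1.53 CPM (2.90-fold lower). The HoxB sum was 9.49 ± 0.728 CPM in scramble and 8.78 ± 0.162 CPM in Hdac4-shRNA libraries, a difference smaller than 1 SD of the scramble libraries. HoxC genes made up 56.1% to 57.8% of all Hox counts in scramble libraries and 39.9% to 43.1% in Hdac4-shRNA libraries, while the HoxB share was 3.60% to 4.10% and then 12.0% to 12.5%. In RNA from whole cultures, fewer cells with a transcript and less transcript per cell cannot be told apart.

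**Figure D1:**
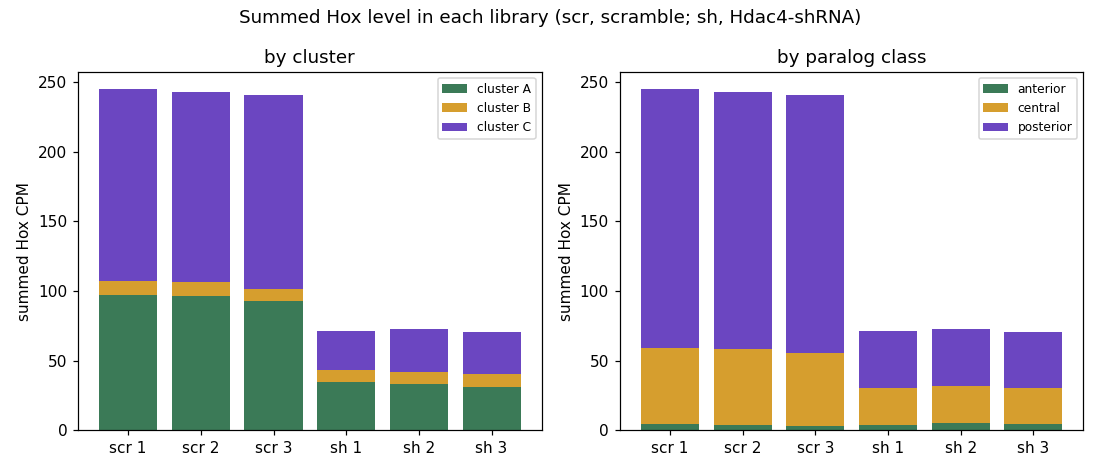
Summed Hox level in CPM (y axis) in each of the 6 libraries (x axis), stacked by cluster at left and by paralog class at right (anterior 1 to 3, central 4 to 8, posterior 9 to 13). The 3 scramble bars reach 241 to 245 CPM and the 3 Hdac4-shRNA bars 70.8 to 72.6 CPM, and most of the lost height is HoxC at left and the posterior class at right.

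Of the 39 genes, 28 had at least 1 count and 25 passed the filter on low counts. Of these 25, 17 were called lower and 3 higher in Hdac4-shRNA libraries, and 5 were not called. Among all 14531 genes, 75.1% were called, 37.1% lower and 38.0% higher. The median log2 fold change was -1.67 over the 25 Hox genes and 0.0144 over all genes tested. A log2 fold change below -1 with a call was found for 16 of the 25, against 10.6% of all genes. The groups did not overlap for 21 of the 25, 16 with all Hdac4-shRNA libraries lower and 5 with all higher, against 76.8% of all genes in either direction. Over the 15 tested members that share no exon base with another gene, 11 were lower and 2 higher. With 3 libraries a group, a two-sided exact permutation test of a single gene cannot give less than p = 0.1, which is what groups that do not overlap gave, so the calls rest on the fit across genes.

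**Figure D2:**
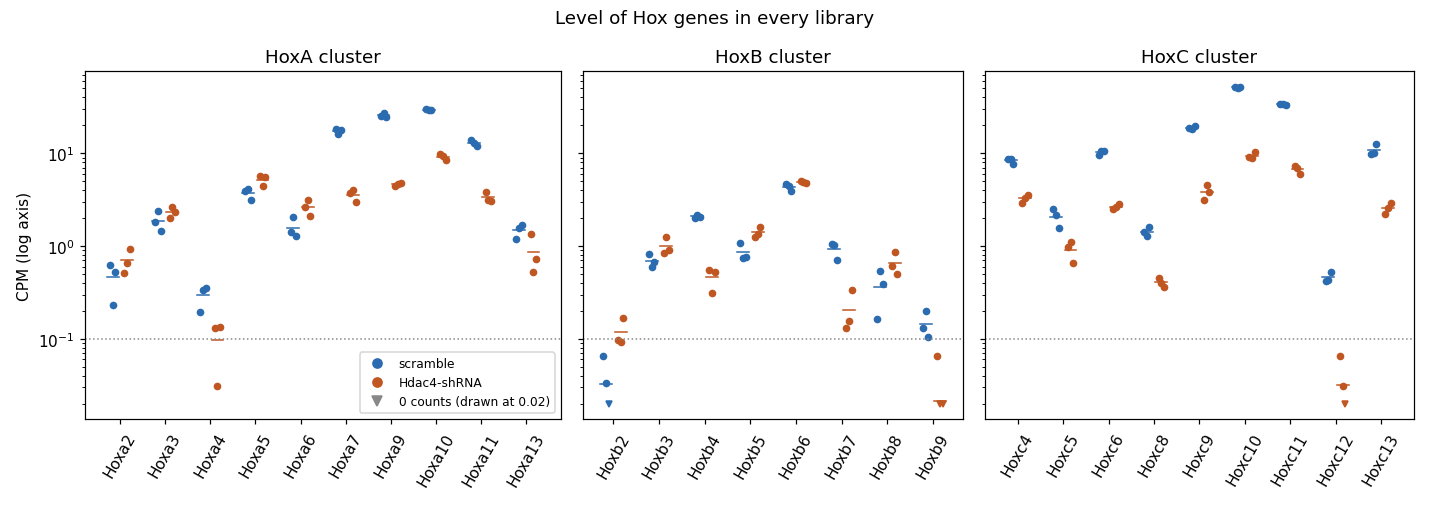
Level in CPM (log axis) of Hox genes with a count, by cluster, with a point for each library and a bar for the mean of each group. The dotted line is the level of 3 counts in a library. All 9 HoxC genes have their Hdac4-shRNA points below their scramble points, whereas Hoxa5, Hoxa6, Hoxb3, Hoxb5 and Hoxb6 have them above.

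All 9 HoxC genes fell, with log2 fold changes from -3.68 to -1.18 and a median of -2.07. Hoxc10, a posterior gene of lumbar and hindlimb tissue, had the highest level of all Hox genes per exon length in both groups. It was counted 1597, 1533 and 1469 times in scramble and 279, 289 and 310 times in Hdac4-shRNA libraries. It fell from 51.7 ± 0.536 to 9.43 ± 0.755 CPM (SD, n = 3), by 2.46 on the log2 scale (edgeR, SE 0.0699, adjusted p = 8.68e-20). The groups lay far apart, since the highest Hdac4-shRNA library held 10.3 CPM and the lowest scramble library 51.2 CPM.

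Hoxc11, its posterior neighbour, was counted 1038, 1010 and 951 times and then 226, 226 and 182 times. Its log2 fold change was -2.31 (SE 0.0818), and its libraries did not overlap either. Hoxc9, which acts with its paralogs in thoracic patterning, went from 573, 549 and 557 counts to 98, 146 and 116 counts (-2.29, SE 0.112). Hoxc13, known for its role in hair and nail, went from 303, 301 and 355 counts to 68, 83 and 88 counts (-2.07, SE 0.140). The posterior HoxC genes at readable depth thus fell by similar amounts, all to between 18.3% and 23.7% of scramble.

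Hoxc12, the shallowest HoxC gene, was counted 13, 13 and 15 times in scramble and 2, 1 and 0 times in Hdac4-shRNA libraries. Its ratio of Hdac4-shRNA to scramble was 0.0698, with a 95% Clopper-Pearson interval of 0.0138 to 0.219 that covers counting error only. The interval holds the ratios of Hoxc9, Hoxc10 and Hoxc11, so Hoxc12 could not be set apart from them at this depth.

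The central HoxC genes fell less in the median (-1.58) than the posterior ones (-2.31), though this order was not tested. Hoxc4 had 268, 262 and 220 counts and then 91, 106 and 107 counts (-1.37, SE 0.130). Hoxc5 had 76, 65 and 45 counts and then 30, 36 and 20 counts (-1.18, SE 0.266). Hoxc6, a thoracic gene that marks the forelimb level in vertebrates, had 292, 317 and 304 counts and then 77, 84 and 85 counts (-1.96, SE 0.128). Hoxc8 had 43, 38 and 46 counts and then 14, 13 and 11 counts (-1.80, SE 0.324). In none of these genes did a library of one group reach the range of the other. Hoxc5 and Hoxc10 share 166 exon bases, and reads that fall there are set aside by the counting.

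HoxA genes moved in both directions. The 4 posterior genes and Hoxa7 fell, and Hoxa5 and Hoxa6 rose. The median log2 fold change over the 10 tested HoxA genes was -0.89.

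Hoxa10, which patterns the lumbar spine and the uterus, had 912, 872 and 835 counts in scramble and 302, 303 and 255 counts in Hdac4-shRNA libraries. It fell from 29.4 ± 0.374 to 9.21 ± 0.665 CPM (-1.67 on the log2 scale, SE 0.0781, edgeR). Hoxa9, a posterior gene also known from leukaemia, had 768, 815 and 698 counts and then 138, 152 and 143 counts (-2.46, SE 0.0917). Hoxa11, which shapes the forearm and lower leg, had 427, 383 and 342 counts and then 118, 102 and 92 counts (-1.95, SE 0.121). In these 3 genes the highest Hdac4-shRNA library stayed well below the lowest scramble library. Hoxa11 shares 800 exon bases with the antisense gene Hoxa11os, and the library kit does not record strand, so its counts are less certain.

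Hoxa13, the digit and genital gene at the end of the cluster, had 36, 47 and 48 counts in scramble and 42, 17 and 22 counts in Hdac4-shRNA libraries. The first Hdac4-shRNA library lay within the scramble range. Its log2 fold change was -0.76 (edgeR, SE 0.315, adjusted p = 0.0336). The call was lost with upper quartile scaling (adjusted p = 0.0585), in DESeq2 (adjusted p = 0.0559), and without scramble replicate 2 or 3 or Hdac4-shRNA replicate 2 or 3 (edgeR, adjusted p = 0.076 to 0.166). Its direction was the same under all of these.

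Hoxa7 and Hoxa6 (ENSMUSG00000038236 and ENSMUSG00000043219) are separated by 5768 bases and moved in opposite directions. Hoxa7, a thoracic gene, had 553, 479 and 514 counts in scramble and 116, 129 and 90 counts in Hdac4-shRNA libraries (-2.27, SE 0.114). Hoxa6 had 43, 61 and 37 counts and then 81, 101 and 64 counts (0.73, SE 0.225, adjusted p = 0.00542 in edgeR). The lowest Hdac4-shRNA library of Hoxa6 exceeded the highest scramble library by only 3 counts. Within a library, Hoxa7 counts were 12.9, 7.85 and 13.9 times those of Hoxa6 in scramble and 1.43, 1.28 and 1.41 times in Hdac4-shRNA. The groups of each gene already did not overlap, in opposite directions, so the ratio could not overlap and is no further test. Scaling between libraries does not enter this ratio. Hoxa7 shares 586 exon bases with Hoxaas3, an antisense gene with at most 21 counts in any library.

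Hoxa5, which acts in the lung and the cervical spine and lies next to Hoxa6, had 121, 124 and 90 counts in scramble and 175, 142 and 166 counts in Hdac4-shRNA libraries. Its log2 fold change was 0.46 (edgeR, SE 0.152, adjusted p = 0.0084). All Hdac4-shRNA libraries were higher, but leaving out scramble replicate 3 gave 0.34 and ended the call (edgeR, adjusted p = 0.0658). Neither Hoxa5 nor Hoxa6 shares an exon base with another gene.

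Anterior HoxA genes, which pattern the hindbrain and the branchial arches, had few counts. Hoxa2, the selector gene of the second branchial arch, had 19, 7 and 15 counts in scramble and 16, 21 and 28 counts in Hdac4-shRNA libraries (log2 fold change 0.60, SE 0.401, not called). Hoxa3, which is needed for thymus and parathyroid, had 55, 72 and 41 counts and then 62, 84 and 71 counts (0.30, SE 0.219, not called). The groups of both genes overlapped. Hoxa4 was too shallow to be tested, with 6, 10 and 10 counts and then 4, 1 and 4 counts.

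**Figure D3:**
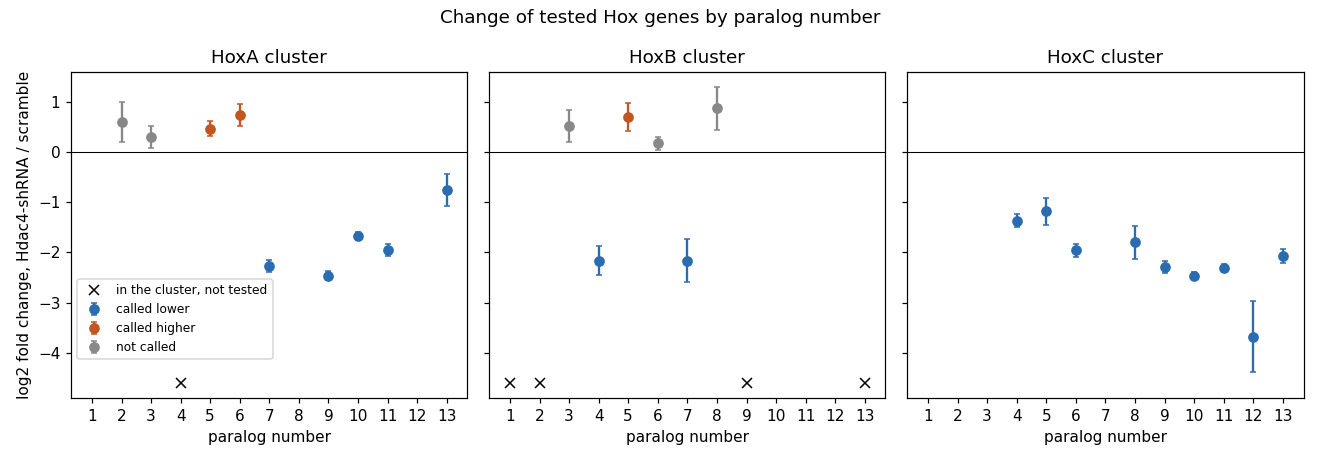
Log2 fold change (Hdac4-shRNA over scramble, y axis) ± SE of tested Hox genes against paralog number (x axis), in a panel for each cluster with any count. Crosses at the bottom mark genes that were not tested, and genes not reported here are not drawn. All HoxC points lie below -1, and the HoxA points change sign between paralogs 6 and 7.

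HoxB, whose highest mean level was the 4.91 CPM of Hoxb6 in Hdac4-shRNA libraries, showed both directions among adjacent genes. Of 6 tested, Hoxb4 and Hoxb7 fell, Hoxb5 rose, and Hoxb3, Hoxb6 and Hoxb8 were not called, with a median of 0.34. Hoxb4, known in blood stem cells, had 62, 65 and 59 counts in scramble and 17, 10 and 16 counts in Hdac4-shRNA libraries (-2.17, SE 0.289, adjusted p = 3.99e-07 in edgeR). Hoxb7 had 32, 31 and 20 counts and then 4, 5 and 10 counts (-2.17, SE 0.428). In both, every Hdac4-shRNA library was below every scramble library.

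Hoxb5, which lies 12145 bases from Hoxb4, had 33, 22 and 22 counts and then 39, 44 and 48 counts (0.70, SE 0.280, adjusted p = 0.028 in edgeR). This call was lost in DESeq2 (adjusted p = 0.0541), with no filter beyond 1 count (adjusted p = 0.0562), and without scramble replicate 2 or 3 or Hdac4-shRNA replicate 3 (edgeR, adjusted p = 0.0874 to 0.0973). The ratio of Hoxb4 to Hoxb5 counts within a library was 1.88, 2.96 and 2.68 in scramble and 0.436, 0.227 and 0.333 in Hdac4-shRNA. The order of the pair was thus inverted in every Hdac4-shRNA library. As the groups of each gene did not overlap and moved in opposite directions, the ratio could not overlap and is no further test.

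Hoxb6, the HoxB gene with the highest level per exon length, had 144, 133 and 113 counts and then 156, 157 and 145 counts (0.17, SE 0.136, not called). Hoxb7 lies 2313 bases from it, and its counts were 0.222, 0.233 and 0.177 of those of Hoxb6 in scramble and 0.0256, 0.0319 and 0.0690 in Hdac4-shRNA libraries. This ratio could not overlap either, since all Hdac4-shRNA libraries were lower for Hoxb7 and higher for Hoxb6. Hoxb3 had 25, 18 and 19 counts and then 26, 40 and 27 counts (0.51, SE 0.322), and 2250 of its exon bases are shared with Hoxb3os. Hoxb8 had 5, 16 and 11 counts and then 19, 28 and 15 counts (0.87, SE 0.427, adjusted p = 0.0684 in edgeR), and was called with upper quartile scaling (adjusted p = 0.0453) and without scramble replicate 2 (1.26, adjusted p = 0.0317). Hoxb2 and Hoxb9 were not tested, with 2, 1 and 0 counts and then 3, 3 and 5 counts for Hoxb2, and 4, 6 and 3 counts and then 2, 0 and 0 counts for Hoxb9.

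HoxD had no count in any library. All 9 genes, Hoxd1, Hoxd3, Hoxd4 and Hoxd8 to Hoxd13, were at 0 in all 6 libraries, and so were Hoxb1 and Hoxb13, which completes the 11 genes without a count. A count of 0 allows up to 3 counts, or 0.0931 to 0.105 CPM depending on the library. Hoxd3 and Hoxd4 share 2634 and 1542 exon bases with another annotated gene, while Hoxd1, Hoxd8, Hoxd9, Hoxd12 and Hoxd13 share none.

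By paralog number, the direction was most uniform at the posterior end. All 9 tested genes of numbers 9 to 13 fell, with a median of -2.29, and the sum of the class went from 185 ± 0.443 to 40.8 ± 0.559 CPM (4.54-fold lower). These were 4 HoxA and 5 HoxC genes, and the 4 HoxC genes of numbers 4 to 8 fell as well. For the posterior HoxC genes, paralog number and cluster therefore cannot be told apart as to direction. At numbers 5, 6 and 8 the HoxC gene fell while no tested HoxA or HoxB copy did (values below). Among all genes tested, 37.1% were called lower and 38.0% higher. Of 12 tested genes of numbers 4 to 8, 7 fell and 3 rose, and the sum went from 53.8 ± 1.35 to 26.4 ± 0.367 CPM. For numbers 1 to 3, the sums of 3.92 ± 0.659 and 4.55 ± 0.607 CPM differed by less than the scramble SD. Posterior genes held 75.7% to 76.9% of Hox counts in scramble and 56.4% to 57.5% in Hdac4-shRNA libraries.

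Paralogs on different chromosomes matched in direction at numbers 4, 7, 9, 10, 11 and 13, where all tested copies fell, and differed at numbers 5, 6 and 8. At number 3, Hoxa3 (0.30) and Hoxb3 (0.51) both lay above 0, and neither was called. At number 5 the log2 fold change was 0.46 for Hoxa5 and 0.70 for Hoxb5 but -1.18 for Hoxc5. At number 6 it was 0.73 for Hoxa6 and 0.17 for Hoxb6, which was not called, but -1.96 for Hoxc6. At number 8, Hoxb8 was not called (0.87) and Hoxc8 fell (-1.80). At number 10 the size differed, and Hoxa10 counts were 0.571, 0.569 and 0.568 of those of Hoxc10 in scramble but 1.08, 1.05 and 0.823 in Hdac4-shRNA libraries (two-sided exact permutation test, p = 0.1).

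To compare levels between genes, CPM was divided by the exon length not shared with another gene. In scramble libraries the order was Hoxc10 (29.7 ± 0.307 CPM per kb), Hoxc11 (16.7 ± 0.151), Hoxa10 (8.998 ± 0.114), Hoxa11 (8.69 ± 0.668), Hoxc9 (7.77 ± 0.251) and Hoxa7 (7.59 ± 0.520), all but the last posterior. Hoxa10 and Hoxa11, and Hoxc9 and Hoxa7, did not differ beyond their SDs. In Hdac4-shRNA libraries Hoxc10 (5.41 ± 0.433 CPM per kb) and Hoxc11 (3.36 ± 0.326) still led, followed by Hoxa6 (3.01 ± 0.577), Hoxa10 (2.82 ± 0.204), Hoxa5 (2.77 ± 0.365) and Hoxb6 (2.50 ± 0.0597). From Hoxc11 to Hoxb6 each level was within the SDs of its neighbour in this order, so the ranks of these 5 are not resolved.

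Noncoding genes inside the clusters were sparse. Of 11 listed, 4 could be tested, 2 fell, 1 rose and 1 was not called. The shares of all tested genes were 37.1% lower and 38.0% higher, and 4 genes are too few to set against them. Hotair, the noncoding RNA between Hoxc11 and Hoxc12, had 47, 57 and 39 counts and then 11, 15 and 18 counts (-1.76, SE 0.314), and fell like the HoxC genes around it. Hoxa11os had 23, 28 and 21 counts and then 10, 3 and 9 counts (-1.76, SE 0.430), in the direction of Hoxa11, with which it shares exon bases. Hoxb5os had 7, 10 and 3 counts and then 20, 20 and 10 counts (1.24, SE 0.480, adjusted p = 0.0236 in edgeR), with groups that touch at 10 counts, and Hoxaas2 was not called (0.72, SE 0.441). Within HoxD, Hoxd3os1 had 0 counts in every scramble library and 5, 2 and 3 counts in the Hdac4-shRNA libraries, near the floor of 3. Hottip and Haglr were at 0 throughout.

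The genes next to the clusters, which are not Hox genes, were compared as lists of neighbours. Over all genes tested, 38.0% were called higher and 37.1% lower, which is the background for the counts of this and the following lists. Of 5 tested beside HoxA, 2 rose and none fell (median 0.10), and of 6 beside HoxB, 5 rose and none fell (median 0.24). Beside HoxC 5 of 6 fell and 1 rose (median -0.52), and beside HoxD all 8 were called lower (median -0.50). Small changes were less firm. The call of Nfe2l2 beside HoxD was lost under several alternatives (values below), and the groups of Atp5g1 (0.15), called higher beside HoxB, overlapped. The medians beside HoxA and HoxC were smaller in size than those of the clusters themselves (-0.89 and -2.07), and that beside HoxA had the opposite sign. For HoxB the median was 0.24 beside the cluster and 0.34 within it. Hnrnpa1, an RNA-binding protein gene beside HoxC, went from 1290 ± 34.9 to 819 ± 16.5 CPM (log2 fold change -0.65), and Calcoco1 fell by 0.61 on the log2 scale. Smug1 (-0.46) and Atf7 (0.13) had the smallest fall and the only rise beside HoxC.

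A few neighbours moved far more than the rest of their list. Igf2bp1, an oncofetal RNA-binding protein gene beyond HoxB, had 104, 100 and 89 counts and then 2290, 2389 and 2250 counts (4.49, SE 0.0739). Jazf1, beside HoxA, had 22, 19 and 28 counts and then 312, 229 and 241 counts (3.43, SE 0.197). Chrna1, the muscle acetylcholine receptor subunit gene beyond HoxD, fell from 232 ± 5.19 to 19.8 ± 1.69 CPM (-3.55, SE 0.0558), and Chn1 fell by 1.93 on the log2 scale. Nfe2l2, in the same list of HoxD neighbours as Chrna1, stood at 163 ± 3.31 and 152 ± 3.69 CPM (-0.09). Some genes listed beside the uncounted HoxD cluster, such as Chrna1 and Nfe2l2, were thus read at high depth. Evx2, in the same list, had 0 counts in all 6 libraries.

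The TALE cofactors of Hox proteins moved both ways. Of 9 tested, 4 rose, 4 fell and 1 was not called, with a median of 0.09. Meis2, which marks proximal limb and supports Hox binding, had 2391, 2295 and 2280 counts and then 1174, 1061 and 1060 counts (-1.15, SE 0.0558). Meis1 fell as well, from 14.7 ± 0.624 to 7.00 ± 0.878 CPM (-1.08, SE 0.103). Meis3 rose from 12.0 ± 1.59 to 29.4 ± 1.94 CPM (1.30, SE 0.0865), and Pknox2 from 3.65 ± 0.570 to 7.14 ± 0.981 CPM (0.96, SE 0.146). Pbx4, named here after its values were seen because it lies apart from the list, had 11, 13 and 8 counts and then 161, 161 and 148 counts (3.79, SE 0.230).

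Among 8 activating chromatin regulators of Hox clusters, the trithorax methyltransferase genes, their partners and genes that oppose Polycomb, 5 fell, 1 rose and 2 were not called, with a median of -0.25. Of the genes that oppose Polycomb, the demethylase gene Kdm6a fell from 49.4 ± 1.86 to 29.3 ± 1.42 CPM (-0.75, SE 0.0587) and its paralog Kdm6b from 59.1 ± 1.39 to 41.8 ± 2.19 CPM (-0.50, SE 0.0543). Men1, encoding menin, changed by -0.23 and Kmt2b by 0.18.

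Of 18 Polycomb genes, 8 rose, 7 fell and 3 were not called, with a median of -0.06. These shares lie near the 38.0% higher and 37.1% lower of all genes, so the counts are no result about Polycomb genes. Suz12, a core subunit of Polycomb complex PRC2, fell from 124 ± 4.98 to 73.6 ± 8.24 CPM (-0.75, SE 0.0667), and Cbx7, a reader subunit of PRC1, from 9.51 ± 0.958 to 5.10 ± 0.690 CPM (-0.90, SE 0.124). Phc3 rose from 78.1 ± 3.26 to 113 ± 4.26 CPM (0.54, SE 0.0477). The changes in these regulators, all under 1 on the log2 scale, were smaller than the Hox median of -1.67.

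Retinoic acid, a graded signal that turns on Hox genes from the anterior end, was followed through 17 listed receptors, enzymes and axial factors. Of the 10 tested, 7 rose, 2 fell and 1 was not called, with a median of 0.36. Cyp26b1, an enzyme that degrades retinoic acid, had 44, 48 and 42 counts and then 169, 154 and 152 counts (1.76, SE 0.171). The receptor gene Rxra rose from 61.5 ± 2.46 to 115 ± 6.71 CPM (0.91, SE 0.0510), and Rara from 48.6 ± 0.652 to 52.9 ± 1.30 CPM (0.12, SE 0.0513). Gmnn, encoding geminin, which limits DNA replication and binds Hox proteins, fell by 0.93 on the log2 scale. The 3 listed genes at 0 in every library were Rarb, Rxrg and Cdx2.

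Positional genes outside the clusters were compared in a pair of lists. Of 33 genes of head mesenchyme, 24 were tested, and 15 rose, 6 fell and 3 were not called (median 1.06, range -6.89 to 6.26). Alx4, a homeobox gene of the frontonasal mesenchyme and skull vault, had 62, 45 and 89 counts in scramble and 2233, 2592 and 2264 counts in Hdac4-shRNA libraries (5.10, SE 0.136). Dlx5, a gene of the lower jaw and of osteoblasts, had 4, 8 and 5 counts and then 227, 266 and 282 counts (5.41, SE 0.241). Dlx3, of the same family, went the other way, with 1556, 1595 and 1434 counts and then 16, 12 and 12 counts (-6.89, SE 0.117), and Six4 fell by 0.67 on the log2 scale. The head list thus had a median on the other side of 0 from the Hox genes, with members far out in both directions. A further 6 genes of the list had no count in any library, among them Sox10, a defining gene of migrating neural crest.

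Of 20 genes of limb and trunk, 15 were tested, and 8 rose, 4 fell and 3 were not called (median 0.42). Emx2, a gene of the shoulder blade and forebrain, had 19, 28 and 13 counts and then 578, 561 and 526 counts (4.72, SE 0.158). Prrx2, a mesenchymal homeobox gene, rose from 38.6 ± 3.06 to 147 ± 24.6 CPM (1.93, SE 0.142). Irx3 fell from 19.6 ± 1.28 to 8.87 ± 0.452 CPM (-1.14, SE 0.0881). The limb and trunk list therefore did not fall as a whole with the posterior Hox genes.

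**Figure D4:**
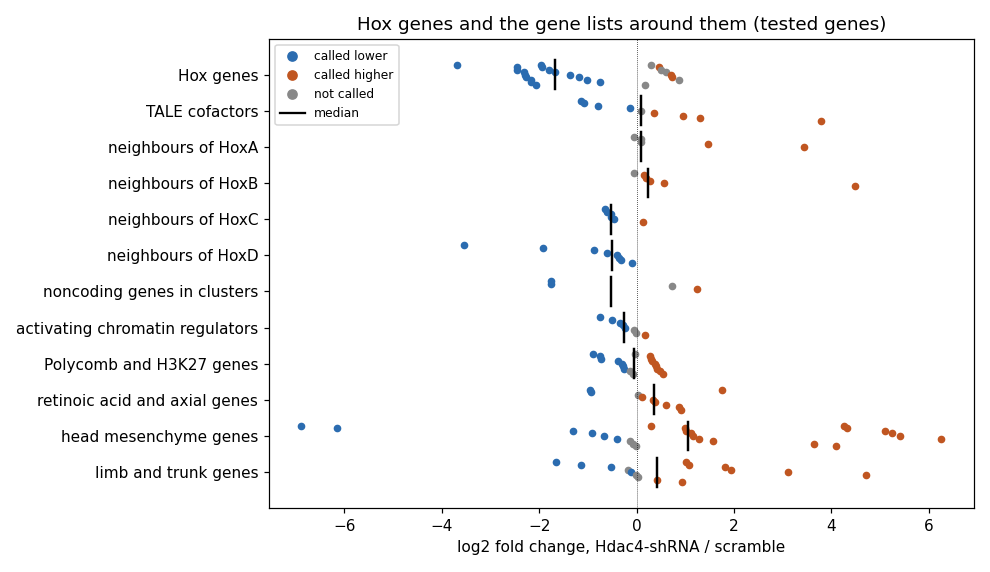
Log2 fold change (Hdac4-shRNA over scramble, x axis) of each tested gene in the Hox genes and in 11 lists around them (y axis), coloured by call, with a black bar at the median. The Hox median is at -1.67, whereas the medians of the TALE cofactor, Polycomb and head mesenchyme lists are at 0.09, -0.06 and 1.06.

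Markers of cell types were set beside these results. Of 11 osteoblast genes, 7 were tested, 5 rose, 1 fell and 1 was not called. Alpl had 0, 0 and 3 counts in scramble and 2, 0 and 3 counts in Hdac4-shRNA libraries, Ibsp had 0 counts in every scramble library, and Bglap had at most 12 counts in any library. Other genes of the list were present in scramble libraries, with Runx2 at 69.9 ± 4.64 CPM, Spp1, encoding osteopontin, at 3154 ± 30.9 CPM, Col1a2 at 1213 ± 22.5 CPM and Phex at 10.4 ± 0.677 CPM. Sp7 had 4, 7 and 2 counts in scramble and 74, 112 and 68 counts in Hdac4-shRNA libraries, and Bglap2 had at most 11 counts in any library. Alpl, Ibsp, Bglap and Bglap2, and Sp7 in scramble, were thus absent or near 0, while Runx2, Spp1 and collagen genes were not. Spp1 fell (-0.62), Phex was not called (-0.09), and Sp7 (4.18), Dmp1 (2.55) and Col1a2 (2.82) rose. Col1a1, the main bone collagen, went from 338 ± 14.4 to 11010 ± 325.9 CPM. All 5 skeletal muscle markers fell together with the posterior Hox genes, and their summed level was 829 to 868 CPM in scramble and 112 to 127 CPM in Hdac4-shRNA libraries. Myod1, the myogenic master regulator, had 2046, 2152 and 1848 counts and then 296, 258 and 280 counts (-2.92, SE 0.072).

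Markers of other cell types moved in both directions. Adipocyte markers summed to 27.3 to 29.6 and then 3.07 to 4.52 CPM, nearly all from Pparg (-3.07), with Lep at 0, and neural and glial markers to 164 to 169 and then 74.1 to 85.7 CPM, nearly all from Tubb3, with Sox10 and Snap25 at 0. Cartilage markers summed to 125 to 128 and then 169 to 186 CPM, with Acan at 0. Sox9 made up nearly all of the scramble sum and was not called (0.02), whereas Col2a1 rose from 0.827 ± 0.179 to 51.1 ± 2.40 CPM (5.93, SE 0.112) and Col10a1 rose from 1 count in each library to 10, 19 and 14 counts. Endothelial, blood cell and epithelial sums stayed below 9 CPM. The part of these marker changes in the Hox results was not tested.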

How the data were processed

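RNA from MC3T3-E1 cells, selected with poly-T and made into unstranded libraries, was sequenced by the authors as paired ends. For each of 6 libraries the authors deposited raw counts of reads per Ensembl gene, without normalization. The submitters' processing notes name FastQC, STAR 2.7.3a, HTSeq 0.12.4 and mm10, and the annotation is not given in the sources used here. Summary lines for reads outside genes (3.32% to 5.29%) and reads shared between genes (6.09% to 6.82%) were left out.

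Of 53801 identifiers, 53706 were found in GENCODE M21 (GRCm38), and symbols, positions and exon lengths came from it. Tests used edgeR 4.0.16 in R 4.3.3 (TMM, filterByExpr, robust quasi-likelihood fit, Benjamini-Hochberg over 14531 genes, two-sided) on all 6 libraries without covariates. The SE given for a log2 fold change is its size divided by the square root of the F statistic of this test. The test was tested on simulated data. Replicates differed by more than sampling noise (chi-square per degree of freedom 3.38 to 9.15). Intervals are Clopper-Pearson and, like the floor of 3 counts, cover counting error only. Promoter windows came from RefSeq (GRCm38.p6). Plots were drawn with matplotlib 3.10.9.

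The members and lists were chosen with earlier results of these data known. Named genes are the Hox genes, Hdac4, up to 4 called genes per list with at least 100 counts on average (the largest and smallest log2 fold changes), and genes that complete a count of 5 or fewer. Alternatives were other scalings, filters and thresholds, DESeq2 1.42.0, limma-voom 3.58.1, the replicate number as a block, and leaving out each library. Some members and listed genes are counted in the totals but not reported here by name.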

Additional observations from a re-analysis of the deposited data

Results flagged for a closer look

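Reads that fell outside all annotated genes, which enter none of the comparisons, made up a larger share in every Hdac4-shRNA library than in any scramble library. The highest scramble share was 3.5801% and the lowest Hdac4-shRNA share was 4.8268%. Their positions were not analysed here, so it is not known whether any of them lie in the Hox clusters.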

How the results depend on the processing

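No tested Hox gene changed direction. The 25 genes and the alternative fits gave 346 pairs of a gene and a fit, all from the same 6 libraries. Of these pairs, 330 kept their side of the threshold and 14 lost a call, those of Hoxa5, Hoxa13 and Hoxb5 among them. A call was gained in 2, both of Hoxb8. The number of Hox genes called lower stayed between 15 and 18 in every alternative. The number called higher was 3, and leaving out each library gave 1 to 3, with 1 without scramble replicate 3. A log2 fold change threshold of 1 left 0 Hox genes higher and 16 lower. The number of all genes called was 10908, and fell to 6454 at a threshold of 0.5 and 3940 at a threshold of 1. Over the listed cofactors, regulators and positional genes, 71 were called, 46 at a threshold of 0.5 and 29 at a threshold of 1. Upper quartile scaling moved the median of all genes from 0.0144 to 0.1035.

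With the replicate number as a block, 3 Hox genes were higher and 17 lower, and the number of all genes called was 11036. Same-numbered libraries did not deviate together (correlations -0.0111, 0.0270 and 0.0166), so the numbers were not taken as pairs, and the block changed no call of a Hox gene, of Hdac4 or of the listed genes named. Hoxa4, Hoxb2 and Hoxb9 were tested only with no filter beyond 1 count, with log2 fold changes of -1.59, 1.68 and -2.58 (edgeR, adjusted p = 0.0844, 0.296 and 0.0912). Depth limits what can be said of these 3, of Hoxc12 and of the 11 genes at 0.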
